A study of Mus musculus with 12 samples.

Results

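Kupffer cell and macrophage markers were followed through mouse liver as a group of 33 genes that macrophages express and most other liver cells express little or not at all. Of the 33, 32 had a row of the value table that the array's annotation assigns to a single gene, among 19938 genes with such a row; Slc11a1 was not analysed here. Each of the 32 had 1 row, and 30 passed the filter on dim genes and were tested among 14953 genes. Ms4a7 and Ccr2 were too dim for the test and are given as values only. The genes were listed by symbol, and earlier results of these data were known when the list was chosen.

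The RNA came from whole liver of 12 mice aged 7 weeks, measured on Affymetrix whole-transcript arrays with 1 array per animal. There were 3 groups of 4 biological replicates: wild type animals, animals with a constitutively active FoxO3 transgene under the LAP promoter (transgenic below), and animals with the same transgene that received metformin. All 3 groups shared a mixed C57BL/6 and NMRI origin with 4 or more backcrosses to C57BL/6. The LAP promoter is commonly used to direct a transgene to hepatocytes, and the labels do not say in which cells the protein was made, how many founder lines were used, or the dose and duration of metformin. FoxO3, a transcription factor of the forkhead family, is held outside the nucleus when insulin signalling is active, and metformin is a biguanide used to lower blood glucose. No wild type animals given metformin were among the samples, so an effect of the drug without the transgene was not measured.

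Some differences between arrays cut across the groups or coincide with them. Foxo3 itself read 8.54 to 8.89 in wild type, 8.60 to 8.97 in transgenic and 8.29 to 9.11 in metformin-treated livers, so the groups overlapped; no label says whether its row can detect the transgene, so it is no check of the labels. Xist, the RNA of the inactive X chromosome, was high and Y-linked transcripts were low in all 4 metformin-treated arrays, and the reverse held in all 4 transgenic arrays. Among wild type arrays, replicates 1 and 4 carried the Xist signal and replicates 2 and 3 the Y-linked signal. Across genes, transgenic replicate 2 had a mean r of 0.984 with the wild type arrays and of 0.968 with the other transgenic ones, and metformin-treated replicate 3 had a mean r of 0.974 with its own group. Mean levels of hepatocyte markers such as albumin were high on every array, between 12.74 and 13.05.

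Kupffer cells are the resident macrophages of the liver. They line the sinusoids, where they take bacteria, debris and aged red cells out of portal blood through scavenger, complement and Fc receptors, and break them down in lysosomes. Their survival depends on signalling through the receptor Csf1r, and their gene programme on PU.1, a transcription factor encoded by Spi1. Monocytes recruited from blood can join or replace them and bring another set of markers, among them Ccr2 and Lgals3.

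Most of these genes were highest in transgenic liver, and in metformin-treated transgenic liver they differed from wild type by a median of 0.07 on the log2 scale. That median ran from -0.007 to 0.26 with single arrays left out, and was highest without metformin-treated replicate 3. The mean log2 signal over the 32 genes was 7.97 ± 0.24 in wild type, 8.59 ± 0.30 in transgenic and 8.06 ± 0.36 in metformin-treated transgenic liver (SD over n = 4 arrays each). By array the mean was 8.27, 7.71, 7.89 and 8.02 in wild type replicates 1 to 4, 8.63, 8.17, 8.87 and 8.69 in transgenic replicates 1 to 4, and 8.31, 8.19, 7.52 and 8.20 in metformin-treated replicates 1 to 4. Transgenic replicates 1, 3 and 4 stood above all other arrays, whereas transgenic replicate 2 lay below wild type replicate 1, so that the groups overlapped. In bulk liver, fewer cells of a type and less RNA per cell cannot be told apart, and the same holds for more of either.

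**Figure D1:**
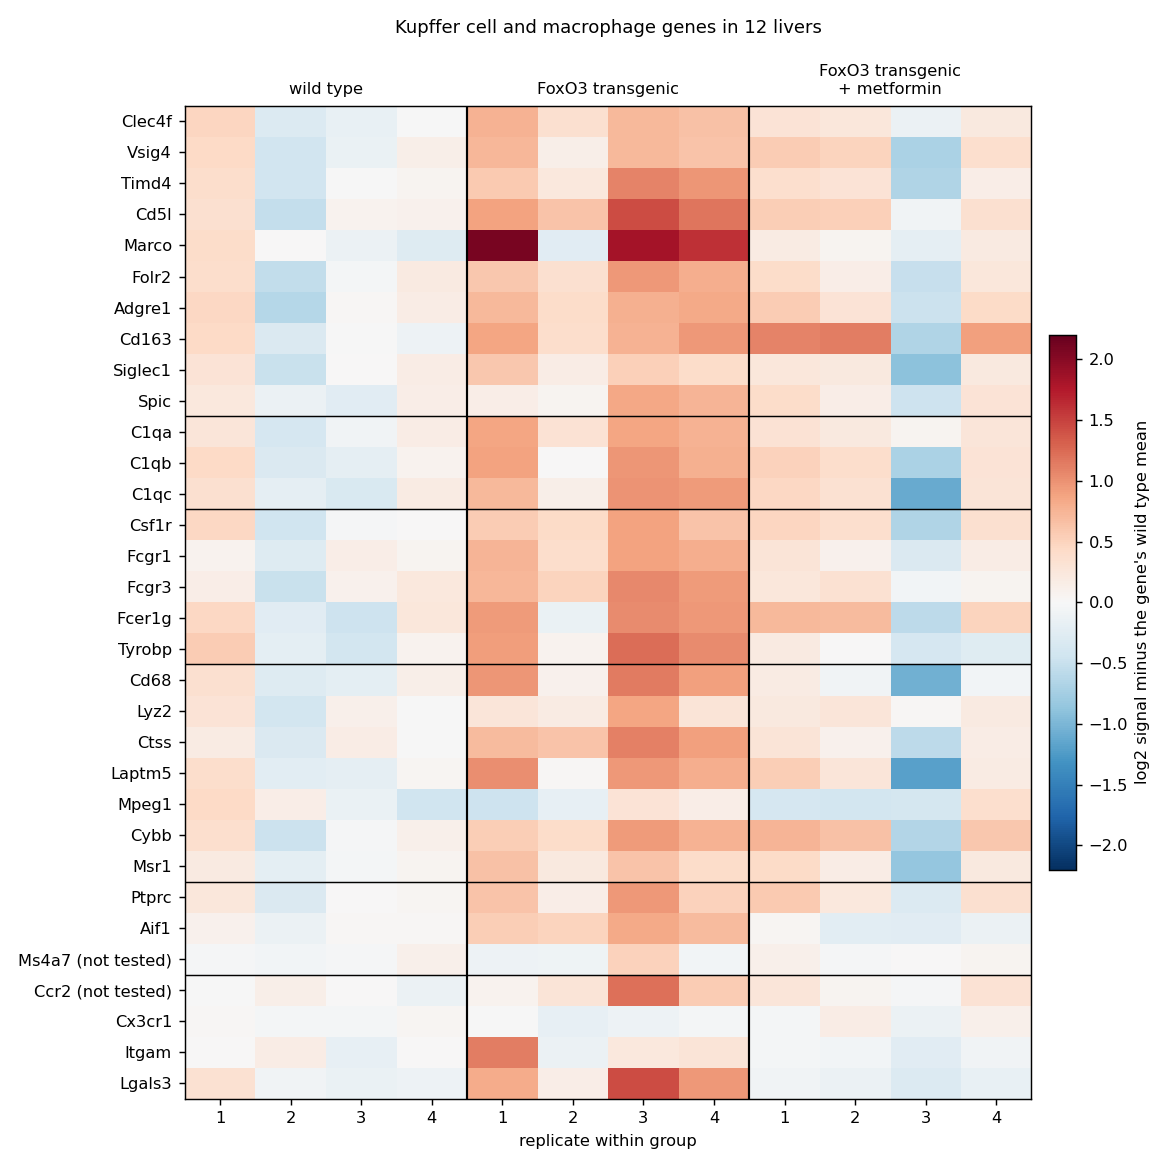
Log2 signal of each of the 32 genes (rows) in each of the 12 arrays (columns), drawn as the difference from that gene's mean over the 4 wild type arrays. Transgenic replicates 1, 3 and 4 are high for most genes, transgenic replicate 2 is lower than the other transgenic arrays for 29 of 32 genes, and metformin-treated replicate 3 is lower than the other treated arrays for 30 of 32.

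The spread within groups was shared by most of the genes. Transgenic replicate 2 was below the other 3 transgenic arrays for 29 of 32 members, while this was so for 36.3% of all tested genes. Metformin-treated replicate 3 was below the other 3 treated arrays for 30 of 32 members (35.6% of all tested genes). In wild type liver, replicate 1 was above the other 3 arrays for 26 members and replicate 2 below them for 23. Transgenic replicate 3 had the highest value of all 12 arrays for 21 members, and metformin-treated replicate 3 the lowest for 18.

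In transgenic against wild type liver, 9 of the 30 tested members rose and 0 fell (limma, Benjamini-Hochberg adjusted p under 0.05 over all 14953 genes). Of all tested genes, 7.97% rose and 6.15% fell. The members called were Clec4f, Cd5l, Marco, C1qa, Fcgr1, Fcgr3, Ctss, Aif1 and Lgals3. At an unadjusted p under 0.05, 20 members were higher and 0 lower, beside 2508 higher and 2204 lower of all 14953 tested genes. The median log2 difference over the 32 members was 0.67, against -0.01 over all tested genes, and 30 of the 32 differences were above 0. For 8 members (Cd5l, C1qa, Fcgr1, Fcgr3, Ctss, Cybb, Msr1 and Aif1) all 4 transgenic arrays lay above all 4 wild type arrays, an order found for 10.9% of all tested genes. The count of 9, beside 2111 of all tested genes, depended on single arrays. Without transgenic replicate 2 it was 18, beside 4004 of all genes. Without metformin-treated replicate 3, which enters through the shared estimate of spread, it was 22, beside 3254 of all genes. Across the other arrays left out in turn it reached its lowest value, 6. The count of all genes was lowest, 764, without transgenic replicate 3.

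In metformin-treated against untreated transgenic liver, 10 of the 30 tested members fell and 0 rose by the same test. Of all tested genes, 14.1% fell and 10.6% rose. The members called were Cd5l, Marco, C1qa, Fcgr1, Fcgr3, Tyrobp, Cd68, Ctss, Aif1 and Lgals3. At an unadjusted p under 0.05, 16 members were lower and 0 higher. Of all 14953 tested genes, 5611 had such a p in either direction, 3140 of them lower. The median difference was -0.49, against -0.01 over all tested genes, and 31 of the 32 differences were below 0. For 8 members (Clec4f, Cd5l, C1qa, Fcgr1, Fcgr3, Ctss, Aif1 and Lgals3) all 4 treated arrays lay below all 4 untreated ones, as did 11.7% of all tested genes, and 9.93% had the reverse order. Without transgenic replicate 2 the count was 16, beside 4828 of all genes (3695 on all 12 arrays). It was 5 without transgenic replicate 1 or 3 and 6 without transgenic replicate 4 or metformin-treated replicate 4. The count of all genes was lowest, 2419, without transgenic replicate 3. Both comparisons use the same 4 transgenic arrays, so a high or low value there moves both in opposite directions.

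In metformin-treated transgenic against wild type liver, 0 of 30 tested members were called by limma, beside 2.43% of all tested genes (0.990% higher and 1.44% lower). At an unadjusted p under 0.05 there were 0 members, beside 1123 higher and 1424 lower of all 14953 tested genes. The median difference over the members was 0.07 (-0.02 over all tested genes), with 21 differences above 0 and 11 below, and 22 of the 30 tested changed sign under at least 1 alternative. With single arrays left out, this median ran from -0.007 (without wild type replicate 2) to 0.26 (without metformin-treated replicate 3). The groups overlapped for every one of the 32 members, whereas 14.4% of all tested genes had groups that did not (6.21% higher and 8.23% lower). The member with the widest difference was Cd163, described below. Among all 3 groups, limma's moderated F test called 11 of the 30 tested members and 24.2% of all tested genes.

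**Figure D2:**
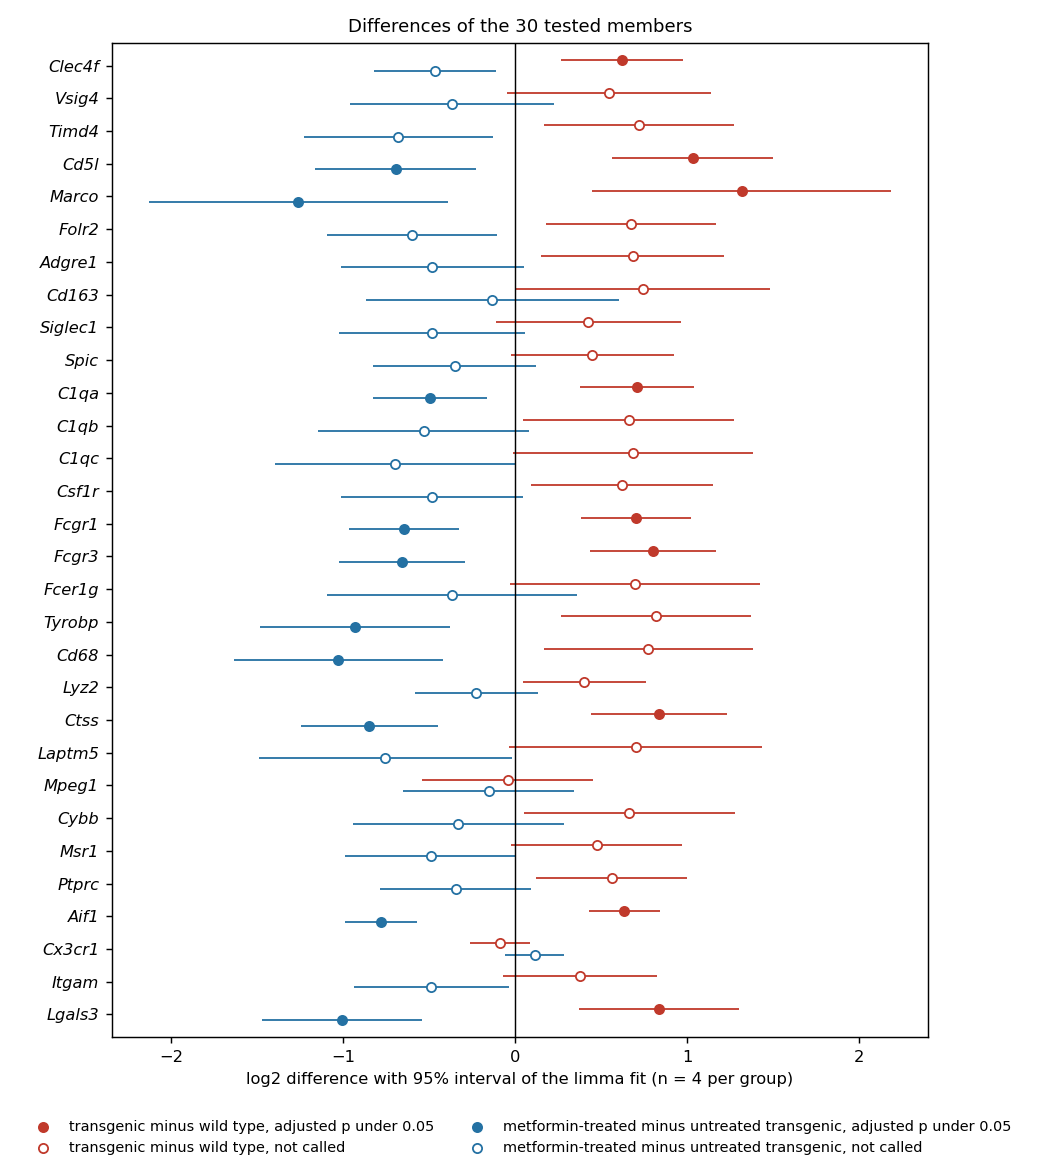
Log2 difference with its 95% interval for the 30 tested members, grouped by role, for transgenic minus wild type (red) and metformin-treated minus untreated transgenic liver (blue). Filled symbols passed limma's adjusted p of 0.05: 9 of the red ones, all above 0, and 10 of the blue ones, all below 0. Mpeg1 and Cx3cr1 sit near 0 in both.

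Among the 10 receptors and regulators that mark resident Kupffer cells, 3 rose with the transgene and 2 fell with metformin. Their median differences were 0.68 and -0.48. Clec4f, a galactose-binding lectin found in the mouse almost only on Kupffer cells, read 10.33, 9.54, 9.68 and 9.84 in wild type replicates 1 to 4, 10.61, 10.21, 10.57 and 10.50 in transgenic replicates 1 to 4, and 10.15, 10.09, 9.72 and 10.05 in metformin-treated replicates 1 to 4. Every treated array was below every untreated transgenic array, while wild type replicate 1 was above transgenic replicate 2. Clec4f rose 1.54-fold with the transgene (log2 difference 0.62 ± 0.16 SE, limma adjusted p = 0.0271), and its difference with metformin missed the threshold (-0.47 ± 0.16, adjusted p = 0.0543). Its rise was no longer called without any 1 of wild type replicates 2, 3 and 4 or transgenic replicates 1, 3 and 4, with adjusted p up to 0.0837.

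Cd5l, a secreted scavenger receptor protein made by tissue macrophages, read 9.89, 9.01, 9.60 and 9.63 in wild type, 10.42, 10.16, 10.97 and 10.72 in transgenic and 10.08, 10.06, 9.46 and 9.89 in treated livers, in replicate order as in all lists of values below. Its transgenic arrays overlapped neither of the other groups, which overlapped each other. The rise was 2.04-fold (1.03 ± 0.22 SE, limma adjusted p = 0.0124) and the fall with metformin 1.62-fold (-0.69 ± 0.22, adjusted p = 0.0341). The call of the fall was lost without any 1 of transgenic replicates 1, 3 and 4 or treated replicates 3 and 4 (adjusted p up to 0.106).

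Marco, a scavenger receptor that binds bacteria, had the widest difference of all members and also the widest spread. It read 6.37, 5.97, 5.84 and 5.69 in wild type, 8.05, 5.71, 7.80 and 7.58 in transgenic and 6.14, 6.03, 5.76 and 6.16 in treated livers. Transgenic replicates 1, 3 and 4 stood well above all other arrays, and transgenic replicate 2 was within the wild type range. The 2.49-fold rise (1.32 ± 0.40 SE, limma adjusted p = 0.0464) and the 2.39-fold fall with metformin (-1.26 ± 0.40, adjusted p = 0.0377) were close to the threshold. The rise was called without transgenic replicate 2 (1.84, adjusted p = 4.02e-05) or treated replicate 3 and lost without any other single array (adjusted p up to 0.144). The fall was lost without any 1 of 9 arrays, all except wild type replicates 1 and 4 and transgenic replicate 2 (adjusted p up to 0.11).

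The other receptors of this group were not called in either comparison. Timd4, which binds phosphatidylserine on dying cells, differed by 0.72 ± 0.25 with the transgene (adjusted p = 0.0758) and by -0.68 ± 0.25 with metformin (adjusted p = 0.0709). Values for Folr2, a folate receptor, were 0.67 and -0.60, and those for Adgre1, which encodes the macrophage antigen F4/80, were 0.68 and -0.48. Vsig4, a complement receptor, differed by 0.55 and -0.37, Siglec1, a sialic acid binding adhesion receptor, by 0.43 and -0.48, and Spic, a transcription factor of haem-handling macrophages, by 0.45 and -0.35.

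Cd163, the receptor for haemoglobin bound to haptoglobin, followed another order. It read 7.10, 6.35, 6.66 and 6.55 in wild type, 7.54, 7.05, 7.43 and 7.62 in transgenic and 7.75, 7.79, 6.00 and 7.58 in treated livers. Treated replicates 1, 2 and 4 were in or above the transgenic range, and treated replicate 3 was the lowest of all 12 arrays. None of its differences was called: 0.75 ± 0.34 with the transgene (adjusted p = 0.155), -0.13 ± 0.34 for metformin in transgenic liver (adjusted p = 0.811) and 0.61 ± 0.34 for treated against wild type liver (adjusted p = 0.398). Without treated replicate 3 the last of these was 1.04 (adjusted p = 0.0124), the first was called as well (adjusted p = 0.011), and the difference between treated and untreated transgenic liver turned to 0.30 (adjusted p = 0.226).

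**Figure D3:**
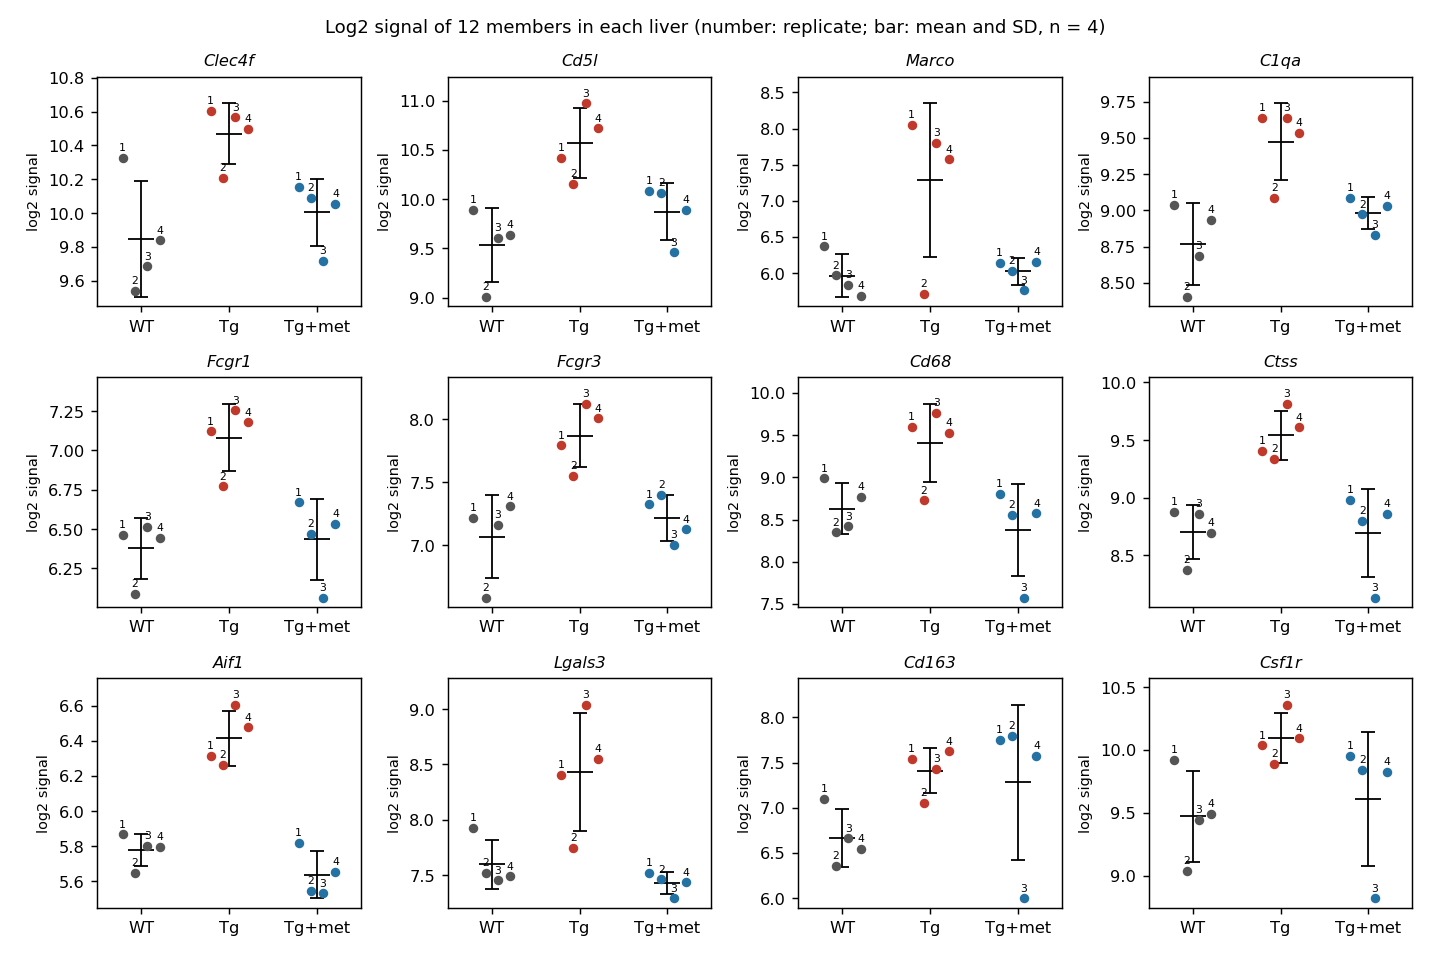
Log2 signal of 12 members in each array, by group (WT, wild type; Tg, transgenic; Tg+met, metformin-treated transgenic), with the replicate number at each point and the mean and SD of the 4 arrays as bars. Aif1, Ctss and Fcgr1 separate the transgenic arrays from both other groups, Marco is high in 3 of 4 transgenic arrays, and Cd163 is high in 3 of 4 treated arrays.

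The 3 chains of complement C1q, which macrophages secrete and which start the classical complement pathway, had median differences of 0.69 with the transgene and -0.53 with metformin, and 1 of the 3 was called in each. C1qa read 9.04, 8.40, 8.69 and 8.94 in wild type, 9.64, 9.09, 9.64 and 9.54 in transgenic and 9.08, 8.97, 8.83 and 9.03 in treated livers. The lowest transgenic array was above the highest array of each other group. C1qa rose 1.63-fold (0.71 ± 0.15 SE, limma adjusted p = 0.0137) and fell 1.41-fold with metformin (-0.50 ± 0.15, adjusted p = 0.0327). The fall was no longer called without any 1 of transgenic replicates 1, 3 and 4 or treated replicates 2, 3 and 4 (adjusted p up to 0.0957). C1qb differed by 0.66 and -0.53 and C1qc by 0.69 and -0.70, with neither called; treated replicate 3 was the lowest array for both.

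Of the receptor for macrophage growth factors, the Fc receptors and their signalling adaptors, 2 of 5 rose with the transgene and 3 of 5 fell with metformin. Csf1r, the receptor for colony-stimulating factor 1 and the cytokine encoded by Il34, read 9.92, 9.04, 9.45 and 9.49 in wild type, 10.04, 9.89, 10.36 and 10.09 in transgenic and 9.95, 9.84, 8.82 and 9.83 in treated livers. Wild type replicate 1 was above transgenic replicate 2, and 3 of the 4 treated arrays lay above 3 of the 4 wild type arrays. Csf1r was not called in either comparison (0.62 ± 0.24 SE, adjusted p = 0.103, and -0.48 ± 0.24, adjusted p = 0.166).

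Fcgr1, the high-affinity receptor for IgG, read 6.46, 6.09, 6.52 and 6.44 in wild type, 7.12, 6.77, 7.25 and 7.18 in transgenic and 6.67, 6.47, 6.06 and 6.53 in treated livers. The low-affinity receptor Fcgr3 read 7.22, 6.59, 7.16 and 7.31, then 7.79, 7.55, 8.12 and 8.01, then 7.32, 7.40, 7.00 and 7.13 in the same 3 groups. For both genes the transgenic arrays lay above all arrays of the other groups, transgenic replicate 2 being the lowest of its group. Fcgr1 rose 1.63-fold (0.70 ± 0.15 SE, limma adjusted p = 0.0125) and fell 1.57-fold with metformin (-0.65 ± 0.15, adjusted p = 0.0086). Fcgr3 rose 1.74-fold (0.80 ± 0.17, adjusted p = 0.0125) and fell 1.58-fold (-0.66 ± 0.17, adjusted p = 0.0149). These 4 calls held without any 1 of the 12 arrays, with adjusted p up to 0.0497.

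The adaptors carry the signal of activating receptors into the cell. Tyrobp, which encodes DAP12, read 8.90, 8.13, 7.93 and 8.41 in wild type, 9.26, 8.43, 9.58 and 9.38 in transgenic and 8.53, 8.35, 7.97 and 8.07 in treated livers. Transgenic replicate 2 was within the range of both other groups. The 1.91-fold fall with metformin was called (-0.93 ± 0.25 SE, limma adjusted p = 0.0203), although not without transgenic replicate 1, 3 or 4 or treated replicate 4 (adjusted p up to 0.0661). The difference from wild type just missed the threshold (0.82 ± 0.25, adjusted p = 0.0512). Fcer1g, the common Fc receptor gamma chain, differed by 0.70 and -0.37 and was not called.

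The upstream sequences of 4 members called higher in transgenic liver are shown because each holds a short PU.1-type motif. Whether PU.1 had a part in their differences was not tested. RefSeq promoter windows (GRCm38.p6, from 250 bases before to 50 bases after the annotated start) were found for 27 of the 33 members. The motif searched was GAGGAAG on either strand, so that it reads as CTTCCTC where it lies on the opposite strand. It was present in 8 of these 27 members (29.6%) and in 15.4% of 27025 genes in the same table. Of 16 tested members with a window that were not called in that comparison, 3 held it. So did 0 of 2 untested members and 0 of 1 without a row. Of the 8 members with a window that were called higher in transgenic liver, 5 held it: Cd5l, Marco, Fcgr1, Fcgr3 and Ctss. The difference between these shares was not tested. A match to these letters is a description of the sequence and no evidence of binding. The 250 bases before the start follow for the first 4 of them, 5′ to 3′ on the gene's own strand, with the motif in capitals.
Cd5l: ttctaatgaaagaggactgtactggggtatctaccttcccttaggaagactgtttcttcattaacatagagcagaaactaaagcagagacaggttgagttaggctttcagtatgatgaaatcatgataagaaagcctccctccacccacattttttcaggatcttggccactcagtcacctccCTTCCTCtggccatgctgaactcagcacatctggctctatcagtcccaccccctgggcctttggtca
Marco: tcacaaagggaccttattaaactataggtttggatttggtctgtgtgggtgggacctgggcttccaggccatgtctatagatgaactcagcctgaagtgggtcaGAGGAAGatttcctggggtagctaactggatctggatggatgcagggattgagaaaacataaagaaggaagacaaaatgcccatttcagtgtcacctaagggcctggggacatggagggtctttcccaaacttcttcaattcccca
Fcgr1: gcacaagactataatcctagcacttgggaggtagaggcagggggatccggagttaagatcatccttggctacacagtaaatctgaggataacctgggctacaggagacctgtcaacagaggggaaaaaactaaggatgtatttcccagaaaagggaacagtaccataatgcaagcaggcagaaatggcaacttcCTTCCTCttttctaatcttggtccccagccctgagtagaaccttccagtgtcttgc
Fcgr3: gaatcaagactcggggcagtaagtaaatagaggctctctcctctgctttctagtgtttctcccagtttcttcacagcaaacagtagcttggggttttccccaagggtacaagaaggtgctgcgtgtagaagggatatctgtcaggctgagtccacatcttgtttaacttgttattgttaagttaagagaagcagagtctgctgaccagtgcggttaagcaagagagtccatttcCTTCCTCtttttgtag

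The Cd5l sequence is chr3:87357631-87357880 on the plus strand, with the motif starting 67 bases before the start on the opposite strand. Marco's is chr1:120505025-120505274 on the minus strand, with the motif 146 bases before the start on the gene's own strand. For Fcgr1 the window is chr3:96293970-96294219 on the minus strand, with the motif on the opposite strand 56 bases before the start. For Fcgr3, which has 2 annotated starts in the table, the window shown is chr1:171059395-171059644 on the minus strand, with the motif on the opposite strand 16 bases before the start. All 4 motifs therefore lie upstream of the start, at distances from 16 to 146 bases and in both orientations.

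Genes of the phagocytic and lysosomal machinery had median differences of 0.66 and -0.49, and of the 7 measured, 1 rose with the transgene and 2 fell with metformin. Ctss, which encodes the lysosomal protease cathepsin S, read 8.88, 8.38, 8.86 and 8.69 in wild type, 9.41, 9.34, 9.81 and 9.61 in transgenic and 8.98, 8.80, 8.14 and 8.86 in treated livers. All transgenic arrays were above all others. It rose 1.79-fold (0.84 ± 0.18 SE, limma adjusted p = 0.0144) and fell 1.80-fold with metformin (-0.85 ± 0.18, adjusted p = 0.0066), and both calls held without any 1 of the 12 arrays.

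Cd68, a glycoprotein of macrophage endosomes and lysosomes, read 8.99, 8.35, 8.42 and 8.77 in wild type, 9.60, 8.73, 9.77 and 9.53 in transgenic and 8.81, 8.56, 7.58 and 8.57 in treated livers. Transgenic replicate 2 overlapped both other groups, and treated replicate 3 was the lowest of all arrays. Its fall with metformin was 2.04-fold (-1.03 ± 0.28 SE, limma adjusted p = 0.0197) and was lost without transgenic replicate 1 or 3 (adjusted p up to 0.0633). Its difference from wild type was 0.78 ± 0.28 (adjusted p = 0.0819), and this was called without transgenic replicate 2 (1.00, adjusted p = 0.0135) or without treated replicate 3 (adjusted p = 0.0267).

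Of the remaining genes with these roles, none was called in either comparison. Laptm5, a lysosomal membrane protein of blood cells, differed by 0.70 with the transgene and -0.75 with metformin. Cybb, the catalytic subunit of the phagocyte NADPH oxidase, differed by 0.66 and -0.33, and the scavenger receptor Msr1 by 0.48 and -0.49. Lyz2, lysozyme, differed by 0.40 and -0.22; its near-identical neighbour Lyz1 may share probes with it, so its values are uncertain.

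Mpeg1, which encodes the pore-forming protein perforin-2, did not share the pattern of its group. It read 10.19, 9.90, 9.61 and 9.33 in wild type, 9.31, 9.57, 10.06 and 9.91 in transgenic and 9.40, 9.35, 9.38 and 10.12 in treated livers. The 3 groups covered nearly the same range. Its differences were -0.04 (95% interval -0.54 to 0.45) and -0.15 (-0.65 to 0.34), and the sign of the first turned when each array was centred on its median (0.024).

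The general myeloid gene Aif1, which encodes the actin-binding protein IBA1, had the smallest p of all members in both comparisons. It read 5.87, 5.65, 5.80 and 5.80 in wild type, 6.31, 6.26, 6.61 and 6.48 in transgenic and 5.82, 5.54, 5.53 and 5.65 in treated livers. The transgenic arrays, replicate 2 included, lay above all others, and the spread within each group was small. Aif1 rose 1.55-fold (0.64 ± 0.10 SE, limma adjusted p = 0.0032) and fell 1.71-fold with metformin (-0.78 ± 0.10, adjusted p = 4.6e-04), and neither call was lost without any 1 array.

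Ptprc, the leukocyte antigen CD45, read 7.61, 7.05, 7.37 and 7.40 in wild type, 7.99, 7.50, 8.32 and 7.87 in transgenic and 7.94, 7.60, 7.06 and 7.71 in treated livers. Wild type replicate 1 overlapped the transgenic group, as did treated replicates 1, 2 and 4. It differed by 0.56 ± 0.20 with the transgene (adjusted p = 0.0806) and by -0.34 ± 0.20 with metformin, with neither called. Ms4a7, a membrane protein of macrophages that was too dim for the test, had group means of 4.81, 4.87 and 4.84 in the order wild type, transgenic and treated.

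Of 4 genes that mark monocytes or macrophages recruited from blood, 3 could be tested and 1, Lgals3, was called. Lgals3, which encodes galectin-3, read 7.92, 7.52, 7.45 and 7.49 in wild type, 8.41, 7.74, 9.04 and 8.55 in transgenic and 7.52, 7.46, 7.29 and 7.43 in treated livers. All treated arrays were below all untreated transgenic ones, and transgenic replicate 2 was below wild type replicate 1. It rose 1.79-fold (0.84 ± 0.21 SE, limma adjusted p = 0.0253) and fell 2.01-fold with metformin (-1.01 ± 0.21, adjusted p = 0.0062). The rise was lost without any 1 of wild type replicates 2, 3 and 4 or transgenic replicates 1, 3 and 4 (adjusted p up to 0.0656), and the fall held without any 1 array.

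The chemokine receptor Ccr2, which brings monocytes out of the bone marrow, read 4.15, 4.30, 4.17 and 4.04 in wild type, 4.24, 4.45, 5.38 and 4.72 in transgenic and 4.43, 4.23, 4.13 and 4.48 in treated livers. It was among the dim genes left out of the test on all arrays, with its highest value in transgenic replicate 3. Itgam, the integrin chain CD11b, differed by 0.38 ± 0.21 (adjusted p = 0.227) and -0.49 ± 0.21 (adjusted p = 0.106), and its highest value, 6.34, was in transgenic replicate 1. Cx3cr1, the fractalkine receptor, differed by -0.09 (95% interval -0.26 to 0.09) and 0.11 (-0.06 to 0.29), and all its arrays lay between 5.93 and 6.29.

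Within a group, the sex chromosome signal varied between arrays in wild type liver only. There, the Xist-signal arrays (replicates 1 and 4) had the higher mean for 31 of 32 members, with a median difference of 0.41. Both lay above both Y-signal arrays (replicates 2 and 3) for 21 members, an order seen in 17.01% of all tested genes. The transgenic arrays all carry the Y-linked signal, and set against the 2 wild type arrays of the same kind the median difference of the 32 members was 0.91, with 30 above 0. All 4 transgenic arrays lay above both of these wild type arrays for 26 members (15.98% of all tested genes). A limma fit on these 6 arrays called 0 of 30 members and 9 genes in all. In it 25 members had an unadjusted p under 0.05, beside 3098 of all 14953 tested genes.

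For metformin the groups hold no array of the same kind, so that the drug and the sex chromosome signal cannot be told apart by any comparison within one kind. With the signal (the level of Xist less the average of the Y-linked genes) as a covariate, which only the wild type arrays separate from the groups, 10 members were called higher in transgenic liver, with a median difference of 0.94. Of all tested genes, 417 rose and 233 fell with the transgene in this fit. In that fit the median for metformin was -1.02, but a single member, Aif1, was called (-0.89, adjusted p = 0.0455), in a fit that called 82 genes in all. Treated arrays set against the 2 wild type arrays with Xist signal had a median difference of -0.09 over the members, with 26 of 32 below 0; for 1 member all 4 treated arrays lay below both.

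The scaling of the arrays also bears on how these counts compare with the rest of the genes. As deposited, 1192 genes rose and 919 fell with the transgene. After centring each array on the median of all rows the split was 1614 and 552, with 12 members higher and 0 lower, and after centring on the median of the tested genes it was 984 and 1255, with 9 members higher and 0 lower. For metformin in transgenic liver the split was 1583 higher and 2112 lower as deposited, then 1108 and 2591, then 2822 and 1478, with 10, 13 and 8 members lower and 0 higher. For treated against wild type liver it was 148 and 216 as deposited and 245 and 138 after centring on the tested genes.

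Other genes of macrophage biology were taken from 5 lists. Beside their counts, 7.97% of all tested genes rose and 6.15% fell with the transgene, and 10.6% rose and 14.1% fell with metformin. Of 11 macrophage transcription factors tested, 3 rose with the transgene and 4 fell with metformin, with median differences of 0.40 and -0.46. Spi1, which encodes PU.1, read 7.94, 7.34, 7.58 and 7.65 in wild type, 8.77, 7.88, 8.92 and 8.67 in transgenic and 7.62, 7.41, 6.91 and 7.41 in treated livers. Transgenic replicates 1, 3 and 4 were above all other arrays, and transgenic replicate 2 was below wild type replicate 1. Spi1 rose by 0.93 ± 0.22 (log2, SE; limma adjusted p = 0.0196) and fell by 1.22 ± 0.22 with metformin (adjusted p = 0.0029).

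Id1 and Id3, inhibitors of helix-loop-helix factors that Kupffer cells, endothelium and hepatocytes can express, rose by 1.70 ± 0.27 (limma adjusted p = 0.0042) and 0.98 ± 0.24 (adjusted p = 0.0228). With metformin, Id3 fell by 1.96 ± 0.24 and Id1 by 1.62 ± 0.27. All 4 treated arrays of Id3, between 6.83 and 7.76, lay below the 4 untreated transgenic ones, between 8.90 and 9.45. Irf8, a factor of monocyte and macrophage development, fell by 0.55 ± 0.16 with metformin (adjusted p = 0.0249).

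Of 13 macrophage growth factors and chemokines tested, 1 rose with the transgene, the chemokine Ccl6 (0.98 ± 0.29, limma adjusted p = 0.046), and 2 fell with metformin. These were Tgfb1, which encodes the cytokine TGF-beta 1 (-0.80 ± 0.19, adjusted p = 0.0102), and Il34, a ligand of Csf1r (-0.21 ± 0.07, adjusted p = 0.0471). Csf1, the other ligand of Csf1r, was not called and differed by 0.13 ± 0.14 and -0.07 ± 0.14. The counts of this list were near the shares of all tested genes. With the transgene 7.69% rose, beside 7.97% of all, and with metformin 15.4% fell, beside 14.1% of all.

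Of 10 genes of innate sensing and cytokines, 2 rose and 1 fell with the transgene. Cd14, the co-receptor for bacterial lipopolysaccharide, which hepatocytes can make too, read 5.65 to 5.95 in wild type, 9.15, 6.48, 9.79 and 8.51 in transgenic and 5.79 to 6.31 in treated livers. Every transgenic array was above every other array, with replicate 2 far below the rest of its group. Cd14 rose by 2.72 ± 0.52 (limma adjusted p = 0.0085) and fell by 2.51 ± 0.52 with metformin (adjusted p = 0.0054). Tlr4, the lipopolysaccharide receptor, rose by 0.53 ± 0.14, and the cytokine gene Il18 fell by 0.77 ± 0.18 with the transgene and rose by 0.64 ± 0.18 with metformin. Il1b, an inflammatory cytokine, fell by 0.78 ± 0.19 with metformin and was also lower in treated than in wild type liver (-0.86 ± 0.19, adjusted p = 0.0398).

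**Figure D4:**
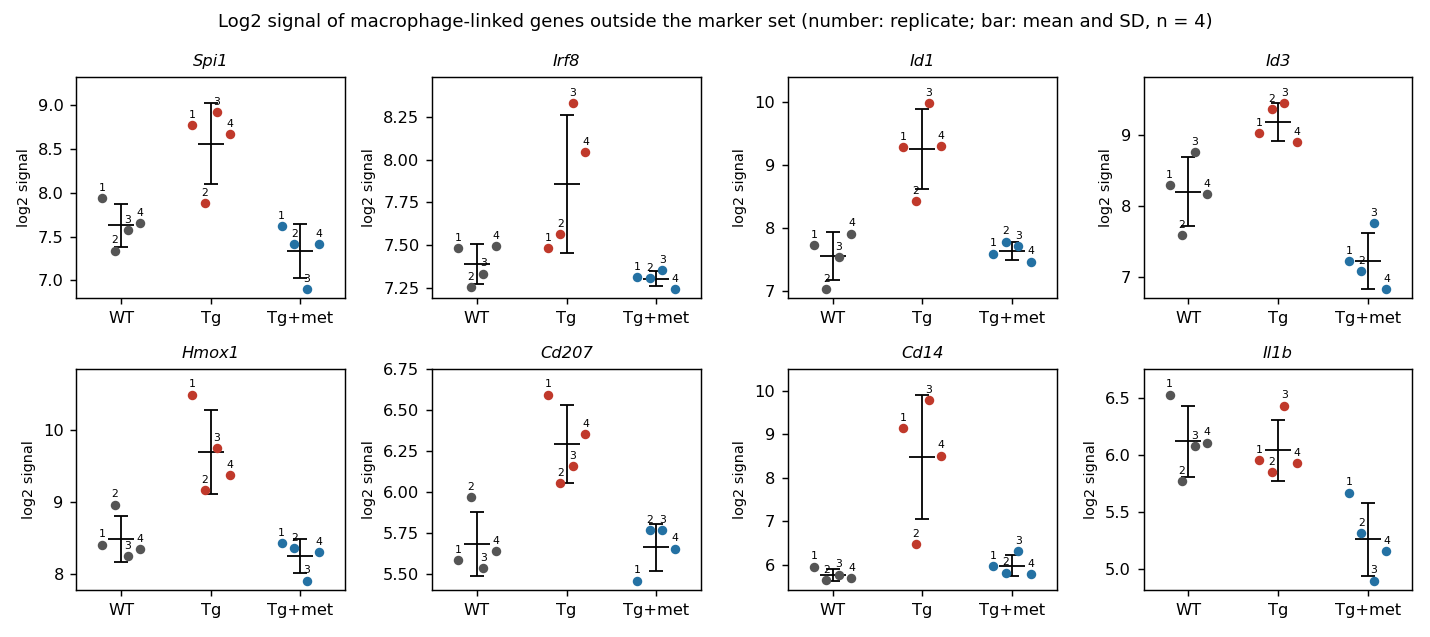
Log2 signal of 8 genes of macrophage biology in each array, by group, with the replicate number at each point and the mean and SD of the 4 arrays as bars. Cd14 and Id1 are higher in all 4 transgenic arrays than in any other array, Spi1 in 3 of the 4, and Il1b is lowest in the treated group.

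Of 9 genes that mark lipid-handling macrophages, 4 rose with the transgene and 3 fell with metformin. Cd36, a fatty acid and scavenger receptor, rose by 1.05 ± 0.15 (limma adjusted p = 0.0026), Plin2, which coats lipid droplets, by 0.59 ± 0.12, Cd63, a tetraspanin of late endosomes, by 1.54 ± 0.46, and Lipa, lysosomal acid lipase, by 0.41 ± 0.11. With metformin, Plin2 fell by 0.78 ± 0.12, Lpl, lipoprotein lipase, by 0.99 ± 0.27 and Cd63 by 1.36 ± 0.46. Cd36 was still higher in treated than in wild type liver (1.00 ± 0.15, adjusted p = 0.0109). Cd36, Plin2 and Cd63 are also expressed by hepatocytes.

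Of 12 genes for the uptake of dying cells and the recycling of iron and haem, 3 rose with the transgene. Hmox1, haem oxygenase 1, which opens the haem ring and is also made by stressed hepatocytes, rose by 1.21 ± 0.26 (limma adjusted p = 0.0131), Cd207, the lectin langerin, by 0.61 ± 0.13 and Cd300a, an inhibitory receptor, by 0.51 ± 0.15. With metformin 4 genes fell: Hmox1 by 1.45 ± 0.26, Cd207 by 0.63 ± 0.13, Cd300a by 0.58 ± 0.15 and Axl, a receptor tyrosine kinase for dying cells, by 0.73 ± 0.24. The iron exporter gene Slc40a1 rose by 0.42 ± 0.11 with metformin.

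Markers of other cell types were measured on the same arrays. For liver endothelial cells, which share the sinusoids with Kupffer cells, 0 of 10 genes were called by limma in any comparison, and at an unadjusted p under 0.05 1 was lower with the transgene and 1 with metformin; Pecam1 differed by 0.14 ± 0.21 with the transgene and -0.34 ± 0.21 with metformin, and Stab2 by -0.17 ± 0.22 and 0.08 ± 0.22. Lyve1 read 9.03 to 9.57 in wild type, 8.45 to 8.89 in transgenic and 8.21 to 9.86 in treated livers. It differed by -0.68 with the transgene and 0.60 with metformin. Of the 10 genes, Lyve1 alone had all transgenic arrays below all wild type arrays, an order found for 1639 of all 14953 tested genes. The mean of the 10 lay between 9.40 and 9.78 on 11 arrays. It was 8.57 on treated replicate 3, the array that was also low for the macrophage genes. Without this array the members' median difference between treated and untreated transgenic liver was -0.33, in place of -0.49.

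Hepatocyte markers averaged 13.02 ± 0.02 in wild type, 12.89 ± 0.12 in transgenic and 13.01 ± 0.03 in treated livers (SD over n = 4 arrays each). Of 9 tested, Ttr, transthyretin, fell with the transgene (-0.44 ± 0.10, limma adjusted p = 0.0166), and Ttr (0.40 ± 0.10) and Asgr1, a subunit of the asialoglycoprotein receptor (0.67 ± 0.20), rose with metformin. Transgenic replicate 3, the array with the highest mean of macrophage genes, had the lowest mean of hepatocyte markers. Whether the amount of hepatocyte RNA had a part in the members' differences was not tested.

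Markers of other leukocytes showed few calls, in lists of 5 to 8 tested genes each. With the transgene 7.97% of all tested genes rose and 6.15% fell. With metformin 12.5% of the tested neutrophil markers and 12.5% of the tested dendritic cell markers fell, near the 14.1% of all tested genes. The 13 neutrophil genes averaged 4.81 to 5.01 in wild type, 4.89 to 5.06 in transgenic and 4.76 to 4.87 in treated livers. Of the 8 neutrophil genes tested, 0 were called with the transgene and 0 had an unadjusted p under 0.05 (S100a8 0.21 ± 0.11, S100a9 0.14 ± 0.09) and S100a9 fell by 0.35 ± 0.09 with metformin. T and NK cell markers averaged 5.08 to 5.38, 5.25 to 5.54 and 5.24 to 5.45 in the same order of groups. Of the 5 tested, 0 were called and 0 had an unadjusted p under 0.05 in either comparison (Cd3e -0.06 ± 0.20 and -0.09 ± 0.20). Of all 10, dim ones included, 7 were higher and 3 lower in transgenic liver by their means. Their median difference with the transgene was 0.23, and -0.03 over the 5 tested. With metformin 3 of the 10 were higher and 7 lower (median -0.06). None of 5 B cell markers was called in either comparison, while 2 were higher with metformin at an unadjusted p under 0.05. Of 9 dendritic cell markers, 8 were above their wild type level in transgenic liver by their means; of the 8 tested, 0 were called and 2 were higher at an unadjusted p under 0.05 (Flt3 0.15 ± 0.11). With metformin Cd209a fell by 0.43 ± 0.12, and 2 were lower at an unadjusted p under 0.05. Their part in the members' differences was not tested.

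Stellate cell and red cell markers moved in single genes. Among 10 stellate cell genes, Dcn rose by 0.36 ± 0.11 and Col1a1 fell by 0.34 ± 0.10 with the transgene, and Des fell by 0.56 ± 0.12 and Lum by 1.02 ± 0.35 with metformin. The erythroid factor gene Klf1 fell by 0.44 ± 0.13 with the transgene and rose by 0.67 ± 0.13 with metformin. None of 3 cholangiocyte markers was called in either comparison (2 were lower with the transgene and 1 higher with metformin at an unadjusted p under 0.05), with Krt7 at -0.20 ± 0.07 and 0.15 ± 0.07.

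**Figure D5:**
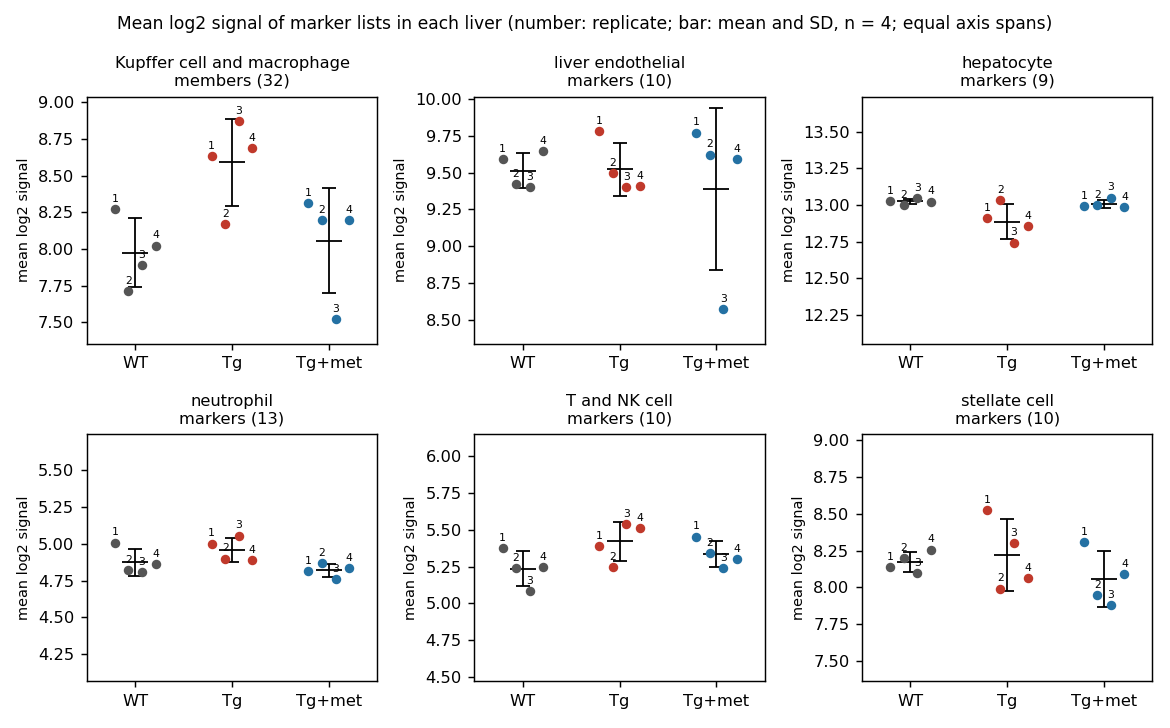
Mean log2 signal on each array of the 32 macrophage genes and of 5 lists of markers of other cell types, by group, with the replicate number at each point and axes of equal span. The macrophage mean runs from 7.52 to 8.87, and the endothelial mean is between 9.40 and 9.78 except on treated replicate 3, where it is 8.57.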

How the data were processed

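Liver RNA was taken from tissue kept in RNAlater, purified with a column kit, biotin-labelled by an assay for sense-strand targets and hybridised, per the labels' protocols. The deposited values are log2 signals, judged by their range, for 35556 rows and 12 arrays. Affymetrix Expression Console is named in the submitters' processing notes; for the deposited log2 values, a summarisation or normalization method was not given in the sources used here. Array medians lay between 5.69 and 5.85, and nothing further was normalized. The table has no measure of background, and the number of arrays limits the precision.

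Rows that the platform annotation assigns to 1 gene (21789) were used, the row with the highest mean standing for a gene, and the 25% of genes with the lowest mean (under 4.86) were left out. Group differences come from 1 limma fit of all 12 arrays without a covariate (limma 3.58.1, R 4.3.3; lmFit, eBayes; two-sided), with Benjamini-Hochberg adjustment over all tested genes and a threshold of 0.05; the fit was tested on simulated data. All adjusted p-values are limma's, and a value after ± is the fit's SE where it is not named SD. Values are log2 and folds are 2 to the power of the log2 difference.

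The members, the other gene lists and the tests were chosen with earlier results of these data known. Values on all 12 arrays are given for the 10 members with the smallest p in the F test and the first member of each role list; those of Marco, Cd163 and Mpeg1 were added after their values were seen. Of the other lists, up to 4 called genes with the smallest p are named, or else the first of the list. Lyve1 was named after its values were seen. Of 145 genes on the other lists, 136 had a row. The Y-linked signal is the mean of Eif2s3y, Kdm5d and Uty. Groups and replicate numbers come from the sample titles; equal numbers did not pair the arrays (correlations of deviations from -0.176 to 0.235). Promoter windows are RefSeq's, matched by symbol. Alternatives were the dim-gene filter, the mean of a gene's rows, quantile normalization, centring, eBayes settings, array weights, the replicate block, only the arrays compared, the sex chromosome signal, and each array left out.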

Additional observations from a re-analysis of the deposited data

Results flagged for a closer look

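For 14 of 96 combinations of a member and a group of 4 arrays, the lowest or the highest array stood apart from the other 3 (Dixon's test at its 95% level); chance gives about 1 in 20, and the genes share their arrays. In metformin-treated replicate 3 the lowest values belonged to Vsig4 (10.05, the others from 11.12 to 11.31), Cd163 (6.00, others 7.58 to 7.79), Siglec1 (7.04, others 8.15 to 8.19), C1qc (8.51, others 9.90 to 10.07), Csf1r (8.82, others 9.83 to 9.95), Fcer1g (8.40, others 9.48 to 9.69) and Cybb (8.46, others 9.69 to 9.86). In transgenic replicate 2 they belonged to Vsig4 (10.88, others 11.38 to 11.48) and Fcer1g (8.84, others 9.92 to 10.03).

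Values that stood above the rest of their group were Lyz2 in transgenic replicate 3 (10.98, others 10.30 to 10.40), Mpeg1 in treated replicate 4 (10.12, others 9.35 to 9.40) and Lgals3 in wild type replicate 1 (7.92, others 7.45 to 7.52). The dim gene Ms4a7 stood apart in wild type replicate 4 (4.93, others 4.75 to 4.78) and in transgenic replicate 3 (5.32, others 4.70 to 4.75).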

How the results depend on the processing

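Of the 19 calls of single members, 0 changed sign under any alternative. With the transgene (9 members of 2111 genes called), array weights gave 25 members and 4818 genes, the sex covariate 650 genes, and Y-signal arrays alone 0 members and 9 genes. The covariate without transgenic replicate 2, chosen after the data were seen, gave 24 members with a median of 1.02. The count of all genes in that fit is not given here, so these 24 have no share of all genes beside them. Leaving out single arrays gave 6 to 22 members and 764 to 4004 genes. For metformin in transgenic liver (10 members of 3695 genes), array weights gave 16 and 6428, the 8 arrays compared alone 2354 genes, the covariate 1 and 82 with a median of -1.02, and the covariate without transgenic replicate 2 16 and 1845 with a median of -1.09; single arrays left out gave 5 to 16 members and 2419 to 4828 genes. For treated against wild type liver (0 members of 364 genes), array weights gave 2 and 3057, trend and robust settings 227 genes, the covariate 14, Xist-signal arrays alone 1, and the covariate without transgenic replicate 2 29; single arrays left out gave 0 to 1 members and 70 to 775 genes. With the replicate number as a block the members called were 9, 11 and 0, beside 1807, 3349 and 135 of all genes, in the same order of comparisons. Of the 12 arrays, 5 correlated best with their own number. Of the 30 uncalled differences between treated and wild type liver, 22 changed sign under at least 1 alternative. In the other comparisons those that did so were uncalled too, namely those of Mpeg1 with the transgene (0.024 after centring, 0.027 with array weights, 0.022 with the covariate without transgenic replicate 2, and -0.19 to 0.10 with single arrays left out) and with metformin (0.056 with array weights), of Cd163 with metformin (0.081 with array weights, -0.30 to 0.30 with single arrays left out, the highest without treated replicate 3) and of Cx3cr1 with metformin (-0.010 with the covariate without transgenic replicate 2). Cd163 was called for treated against wild type liver with array weights (0.91, adjusted p = 0.0032). The cause of these changes was not tested.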
